A study of Mus musculus with 8 samples.

Results

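The thin filament of the sarcomere was followed through 10 genes in hearts with and without Lrpprc: the actin genes Actc1, Acta1 and Acta2, the troponin T genes Tnnt2 and Tnnt1, the troponin I genes Tnni3 and Tnni1, the troponin C gene Tnnc1, and the tropomyosin genes Tpm1 and Tpm2. The genes were listed by name as actin, troponin and tropomyosin genes of striated and smooth muscle, with earlier results of these data known. All 10 were found among the 50599 gene records of each library and all 10 were tested. RNA from whole hearts was sequenced in 8 libraries, each from 1 mouse and named by group and replicate number, 4 labelled wildtype and 4 labelled Lrpprc knockout. All animals were 12-week-old males on a C57BL/6N background. The study describes its controls as Lrpprc loxP/loxP mice and its knockouts as Lrpprc loxP/loxP,Cre+ mice, so the animals labelled wildtype also carry the loxP alleles. The knockout was restricted to heart and skeletal muscle, because embryos do not survive without Lrpprc, and a whole heart also holds cell types that it did not target. The promoter that drives Cre is not given in the sources used here. Lrpprc encodes an RNA-binding protein of mitochondria that keeps mitochondrial mRNAs stable together with its partner Slirp.

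A thin filament is a helical polymer of actin with tropomyosin lying along its groove. The troponin complex sits on tropomyosin at regular intervals: troponin T anchors the complex, troponin I holds contraction off at rest, and troponin C binds the calcium that releases it. Each subunit is encoded by several genes that muscles use differently. The adult mouse heart uses mainly Actc1, Tnnt2, Tnni3, Tnnc1 and Tpm1. Acta1 is the main actin of skeletal muscle but is not confined to it, and Tnni1 is the troponin I of slow skeletal muscle and of the fetal heart. Tnnt1 is the troponin T of slow skeletal muscle, Tpm2 is a tropomyosin of skeletal and smooth muscle, and Acta2 is the actin of smooth muscle.

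The actin genes code for nearly the same protein from clearly different mRNAs, which matters here because reads have to be told apart. The first 30 coding bases of each are shown for that reason, 5′ to 3′ from GRCm38 with GENCODE M21 coding starts, with capitals at the 10 positions where the genes do not all carry the same base. All lie on the minus strand, at chr2:114052002-114052031 for Actc1, chr8:123893668-123893697 for Acta1 and chr19:34252524-34252553 for Acta2.
Actc1: atgtgTgaCgaCgaGgaGaCcacCgcTTtG
Acta1: atgtgCgaCgaAgaCgaGaCcacCgcTCtT
Acta2: atgtgTgaAgaGgaAgaCaGcacAgcCCtG
Over their 1131 coding bases Acta1 and Actc1 were identical at 976 positions (86.3%), Acta1 and Acta2 at 85.4%, and Actc1 and Acta2 at 82.6%. The identity was 74.9% between Tpm1 and Tpm2, 70.6% between Tnnt1 and Tnnt2 and 67.1% between Tnni1 and Tnni3. No stretch of 50 bases was shared within any of these pairs, and no other GENCODE transcript matched a member at 95% identity over 200 bases or more. The deposited counts of 9 members were whole in all libraries. Acta1 had a fractional count in 4 libraries, and which record shares its reads was not examined. Gm20388 overlaps Acta1 on the other strand, as A530058N18Rik does Actc1 and Nisch does Tnnc1. All 10 genes code for protein, Tnnt2, Tnni1 and Tnnc1 on the plus strand and the others on the minus strand, and their coordinates below are those of GENCODE M21 on GRCm38.

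Total counts per library ranged from 35218541 to 47743376. The mitochondrial rRNAs took 44.0% to 46.9% of the counts in wildtype libraries and 65.6% to 67.8% in knockout libraries. Lrpprc itself had normalised counts (counts divided by the size factor of the library and corrected for transcript length) of 3424 to 3946 in wildtype hearts and 504.3 to 605.4 in knockout hearts, a log2 fold change of -2.67 ± 0.100 (SE). The heart muscle gene Myh6 was high in all 8 libraries (normalised counts of 242062 to 599565), while the skeletal muscle myosins Myh2 and Myh4 had at most 3 counts in any library and Myh1 at most 7. Knockout replicate 3 stood apart from its group: the chi-square per degree of freedom between it and the other knockout libraries was 33.4 to 48.3, against 13.5 to 28.8 among the others and 4.40 to 9.31 among wildtype libraries. Values without this library stand beside several of the results that it moves.

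Of the 10 genes, 2 rose in knockout hearts (Acta1 and Tnni1), 6 fell (Actc1, Acta2, Tnnt1, Tnni3, Tpm1 and Tpm2) and Tnnt2 and Tnnc1 did not pass the test (DESeq2, Benjamini-Hochberg adjusted p under 0.05). Across all 19959 records tested 33.7% were called, 18.2% higher and 15.5% lower. The normalised counts of 8 of the 10 genes did not overlap between the groups, against 33.0% of all records tested. Without knockout replicate 3, 9 of the 10 genes were called, Tnnt2 being the additional one. The median log2 fold change of the 10 genes was -0.71 and that of all records tested was 0.0050. The direction of small changes depended on how libraries were scaled. Scaling by total counts moved the median of 15754 records by -0.30 on the log2 scale and gave 1 member higher and 7 lower, with 1924 of all records higher and 5912 lower. Scaling by total counts without mitochondrial rRNA moved the median by 0.43 and gave 3 members higher and 4 lower, with 7917 of all records higher and 1103 lower. Relative to the median of the same 15754 records, with the size factors used, total counts and total counts without mitochondrial rRNA in that order, Actc1 lay at -1.17, -1.17 and -1.16, Acta1 at 2.41, 2.39 and 2.40, Tnnt2 at -0.17, -0.18 and -0.18, and Tpm1 at -0.43, -0.44 and -0.44. The data come from whole tissue, so fewer cells of a type and less RNA per cell cannot be told apart.

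**Figure D1:**
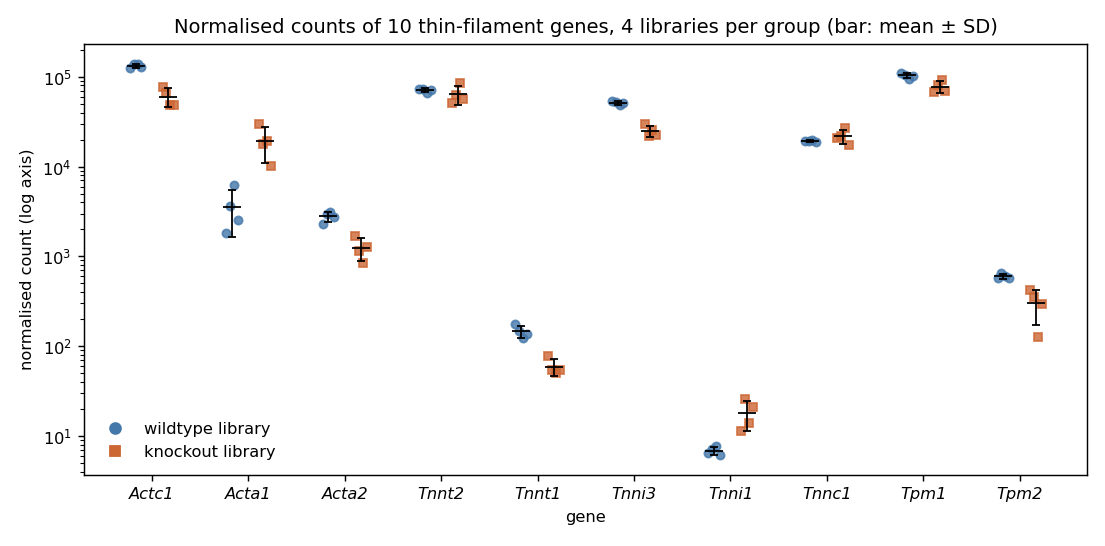
Normalised counts on a log axis of the 10 genes in the 4 wildtype libraries (blue circles) and the 4 knockout libraries (orange squares), with bars for the group mean ± SD. The groups overlap for Tnnt2 and Tnnc1, while the knockout libraries lie above the wildtype libraries for Acta1 and Tnni1 and below them for the other 6 genes.

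Actc1 (ENSMUSG00000068614.7), cardiac alpha-actin and the main actin of the adult heart, lies on chromosome 2 from 114047282 to 114053548. For Actc1, wildtype libraries 1 to 4 had normalised counts of 124826, 138518, 139904 and 128880, and knockout libraries 1 to 4 had 76629, 66705, 48260 and 48280. The highest knockout library was below the lowest wildtype library, and the knockout libraries were more spread. The log2 fold change was -1.15 ± 0.162 (SE, n = 4 per group, DESeq2 adjusted p = 2.56e-11), which is 2.22-fold lower.

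Acta1 (ENSMUSG00000031972.5), skeletal alpha-actin, lies on chromosome 8 from 123891769 to 123894751. For Acta1, wildtype libraries 1 to 4 had normalised counts of 1803, 3662, 6243 and 2569, and knockout libraries 1 to 4 had 30019, 17639, 19248 and 10141. The lowest knockout library was above the highest wildtype library, although both groups were wide. Acta1 rose by 2.43 ± 0.498 (SE, adjusted p = 9.40e-06) on the log2 scale, which is 5.40-fold, and leaving out single libraries gave 2.14 to 2.84. This was the largest rise and the largest change in size among the 10 genes.

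Acta2 (ENSMUSG00000035783.8), smooth muscle alpha-actin, lies on chromosome 19 from 34241090 to 34255590. For Acta2, wildtype libraries 1 to 4 had normalised counts of 2297, 2993, 3116 and 2719, and knockout libraries 1 to 4 had 1700, 1145, 854 and 1286. The groups did not overlap and knockout replicate 3 was the lowest. Acta2 fell by 1.16 ± 0.197 (SE, adjusted p = 6.02e-08) on the log2 scale, and by 1.01 without knockout replicate 3. Of 5 other smooth muscle markers 3 fell, Myh11 by 1.16, Smtn by 1.35 and Mylk by 0.56. Cnn1 and Tagln did not pass the test at -1.51 and -0.55. The summed normalised counts of the 5 markers were 6313 to 7582 in wildtype libraries and 2395 to 4220 in knockout libraries, with the lowest sum in knockout replicate 3. Myofibroblasts also make Acta2, and of 3 myofibroblast markers 2 rose, Postn by 2.66 and Cthrc1, which was near the limit of detection in wildtype (5 counts or fewer) and at 6.04 to 58.2 normalised counts in knockout libraries, by a fitted 3.50 ± 0.878 (SE), while Fn1 was at 1.52 and did not pass (adjusted p = 0.0512). The part of these cells in the fall of Acta2 was not tested.

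The ratio of 2 genes within a library does not depend on how libraries are scaled. It was taken from TPM, a measure of transcript abundance that corrects for length and library size, and 5 ratios were tested by an exact permutation test over all 70 assignments of the libraries (two-sided, smallest possible p = 0.0286). Acta1 was 0.0148, 0.0271, 0.0458 and 0.0205 of Actc1 in wildtype libraries 1 to 4, and 0.402, 0.271, 0.410 and 0.216 of Actc1 in knockout libraries 1 to 4. All knockout values were above all wildtype values. The mean log2 ratio was 3.66 higher in knockout hearts (exact p = 0.0286, Benjamini-Hochberg adjusted over the 5 ratios 0.0476), which is 12.6-fold. As a share of the pair, Acta1 was 2.62% ± 1.27 (SD, n = 4) in wildtype and 24.2% ± 5.58 in knockout hearts. Acta2 and Actc1 fell side by side: the log2 ratio of Acta2 to Actc1 was -5.89 ± 0.122 (SD, n = 4) in wildtype and -5.91 ± 0.298 in knockout libraries, and the groups overlapped (exact p = 0.886). In this pair the difference was smaller than the spread between replicates.

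Of the TPM of the 3 actins together, Actc1 made up 95.8% ± 1.33 (SD) in wildtype and 74.8% ± 5.33 in knockout hearts, Acta1 2.58% ± 1.24 and 23.9% ± 5.56, and Acta2 1.61% ± 0.114 and 1.27% ± 0.331. The rise of Acta1 did not make up for the fall of Actc1 in number of transcripts. Actc1 and Acta1 together had 96911, 108846, 111933 and 100614 normalised counts per kilobase in libraries 1 to 4 of the wildtype group, against 82201, 64886, 52039 and 44901 in those of the knockout group. The groups did not overlap, and the knockout mean was 0.583 of the wildtype mean.

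**Figure D2:**
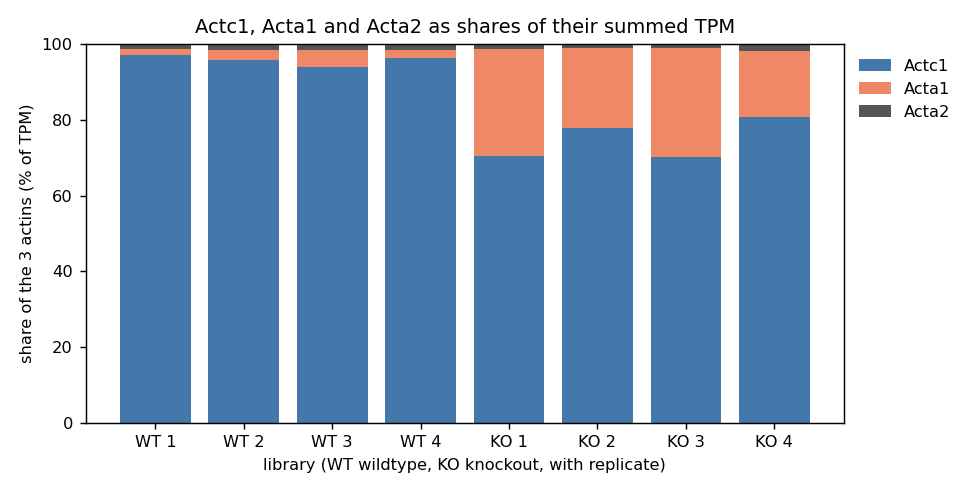
Stacked bars of Actc1, Acta1 and Acta2 as percentages of their summed TPM in each of the 8 libraries. Acta1 takes 1.44% to 4.31% in the 4 wildtype libraries and 17.4% to 28.8% in the 4 knockout libraries.

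The promoters of the actins were searched for motifs known from muscle genes because Acta1 and Actc1 moved in opposite directions. A CArG box, which serum response factor binds, was searched as an exact match of 10 letters (CC, then A or T alone, then GG). Boxes that depart from these letters were not counted. The box is shown in capitals below in the promoters of both genes, in RefSeq sequence of GRCm38 from 250 bases before to 50 bases after the annotated start. The Actc1 window is chr2:114052903-114052932 and the Acta1 window is chr8:123894829-123894858, both on the minus strand.
Actc1: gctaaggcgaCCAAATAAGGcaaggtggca
Acta1: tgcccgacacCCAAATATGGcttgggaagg
The box began 47 bases before the start of Actc1 and 73 bases before the start of Acta1. These were the 2 members of 10 with an exact CArG box in this window, against 1.81% of all genes with a RefSeq promoter (1.63% of 32851 promoters). An MCAT element (CATTCC on either strand), which TEAD factors bind, was found in 5 members, Acta1, Acta2, Tnnt2, Tnnc1 and Tpm1, against 16.6% of all genes with a RefSeq promoter (14.7% of promoters). The windows with this element in Acta1 (chr8:123894804-123894833, minus strand) and Tnnt2 (chr1:135836295-135836324, plus strand) are shown because the former rose and the latter did not pass the test.
Acta1: gaagggcagcaaCATTCCttcggggcggtg
Tnnt2: tctcctgctgcaCATTCCtccctccgcggg
The 5 genes with an MCAT element included 1 that rose, 2 that fell and 2 that did not pass the test. No base was shared between the CArG box and the MCAT element of Acta1. A match of letters is no evidence of binding, and binding was not measured.

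Among the 5 troponin genes Tnni3 and Tnnt1 fell, Tnni1 rose at few counts, and Tnnt2 and Tnnc1 did not pass the test. Tnni3 (ENSMUSG00000035458.15), the cardiac troponin I, lies on chromosome 7 from 4518305 to 4524229. For Tnni3, wildtype libraries 1 to 4 had normalised counts of 53574, 52037, 48592 and 50727, and knockout libraries 1 to 4 had 29459, 21699, 25263 and 22316. The groups were tight and far apart. Dnaaf3 overlaps Tnni3 on the same strand, and the counts of Tnni3 were whole in all libraries. Tnni3 fell by 1.05 ± 0.116 (SE, adjusted p = 4.67e-18) on the log2 scale, 2.08-fold, and had the smallest standard error and the smallest adjusted p of the 10 genes.

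Tnni1 (ENSMUSG00000026418.16), the slow skeletal and fetal troponin I, lies on chromosome 1 from 135779434 to 135810989. It was close to the limit of detection, with 7, 8, 8 and 6 counts in libraries 1 to 4 of the wildtype group and 11, 24, 11 and 24 in those of the knockout group. Every knockout library was above every wildtype library. Tnni1 rose by 1.40 ± 0.499 (SE, adjusted p = 0.0178) on the log2 scale, 2.64-fold, but the call was lost without wildtype replicate 1 (adjusted p = 0.0571), wildtype replicate 4 (0.0596), knockout replicate 2 (0.108) or knockout replicate 4 (0.0757), and with total-count scaling (0.0714). The ratio of Tnni1 to Tnni3 was 2.35 higher on the log2 scale in knockout hearts, with no overlap (exact p = 0.0286, adjusted over the 5 ratios 0.0476). With a pseudocount of 1 TPM, which is above every value of Tnni1, the difference was 1.51. Even so, Tnni1 was 0.0641% ± 0.0300 (SD, n = 4) of the pair in knockout hearts, against 0.0113% ± 0.00137 in wildtype hearts.

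Tnnt2 (ENSMUSG00000026414.13), the cardiac troponin T, lies on chromosome 1 from 135836354 to 135852260, and 25365 bases separate it from Tnni1. For Tnnt2, wildtype libraries 1 to 4 had normalised counts of 74042, 72563, 66610 and 71883, and knockout libraries 1 to 4 had 51108, 63259, 85950 and 56601. The knockout libraries were spread on both sides of the wildtype libraries because knockout replicate 3 was above all of them, while the other 3 were below. The log2 fold change of Tnnt2 was -0.15 ± 0.158 (SE, adjusted p = 0.509, 95% interval -0.46 to 0.16), -0.32 (adjusted p = 0.00147) without knockout replicate 3, -0.46 (adjusted p = 0.00459) with total-count scaling and 0.26 (adjusted p = 0.110) with total counts without mitochondrial rRNA. Whether Tnnt2 passed the test thus depended on 1 library and on the scaling.

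Tnnt1 (ENSMUSG00000064179.13), the slow skeletal troponin T, lies next to Tnni3 on chromosome 7 from 4504570 to 4516382, on the same strand and 1923 bases away. For Tnnt1, wildtype libraries 1 to 4 had normalised counts of 176.7, 146.8, 124.5 and 136.0, and knockout libraries 1 to 4 had 77.62, 54.00, 49.82 and 54.97. It was a low gene in both groups with no overlap between them. Tnnt1 fell by 1.30 ± 0.216 (SE, adjusted p = 2.23e-08) on the log2 scale, and its ratio to Tnnt2 fell by 1.13 (exact p = 0.0286, adjusted over the 5 ratios 0.0476). Without knockout replicate 3 the ratio fell by 0.91. Tnnt1 was 0.244% ± 0.0285 (SD, n = 4) of the pair in wildtype and 0.118% ± 0.0473 in knockout hearts.

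Tnnc1 (ENSMUSG00000091898.8), the troponin C of heart and slow muscle and the calcium sensor of the filament, lies on chromosome 14 from 31208312 to 31211729. For Tnnc1, wildtype libraries 1 to 4 had normalised counts of 19157, 19266, 19761 and 18993, and knockout libraries 1 to 4 had 20968, 21700, 26980 and 17468. The groups overlapped, with knockout replicate 4 the lowest and knockout replicate 3 the highest of all 8. The log2 fold change of Tnnc1 was 0.17 ± 0.133 (SE, adjusted p = 0.331, 95% interval -0.09 to 0.43), 0.054 without knockout replicate 3, 0.27 without knockout replicate 4, -0.13 (adjusted p = 0.328) with total-count scaling and 0.59 (adjusted p = 1.91e-07) with total counts without mitochondrial rRNA.

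**Figure D3:**
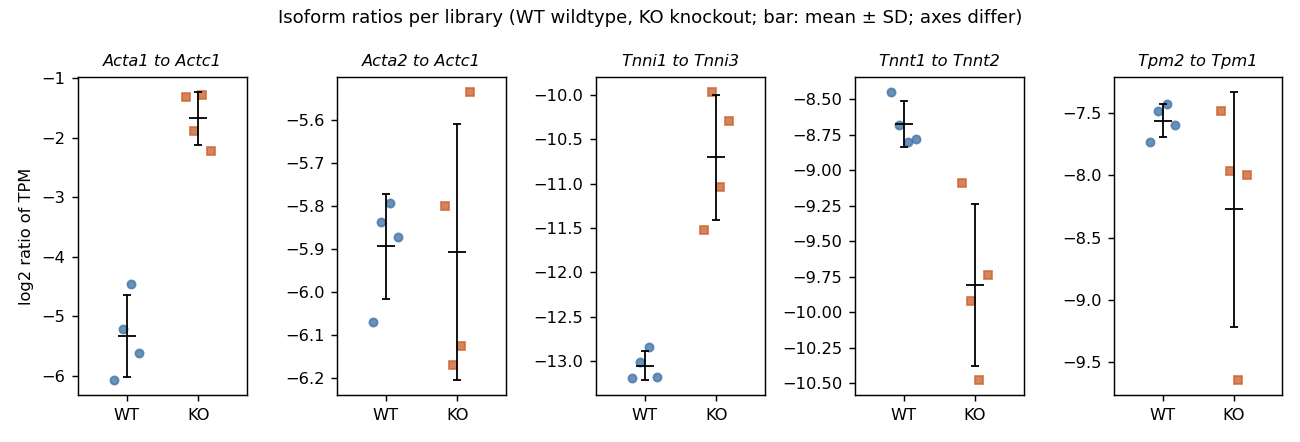
Log2 ratio of TPM (pseudocount 0.01) for 5 pairs of thin-filament genes in each wildtype (WT) and knockout (KO) library, with bars for the mean ± SD and a separate axis range for each pair. The groups do not overlap for Acta1 to Actc1, Tnni1 to Tnni3 and Tnnt1 to Tnnt2, and they overlap for Acta2 to Actc1 and Tpm2 to Tpm1.

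Tpm1 (ENSMUSG00000032366.15), the main tropomyosin of the heart, lies on chromosome 9 from 67022590 to 67049406. For Tpm1, wildtype libraries 1 to 4 had normalised counts of 109651, 106029, 95521 and 102304, and knockout libraries 1 to 4 had 68323, 80965, 93152 and 68590. The groups did not overlap, but knockout replicate 3 came close to the lowest wildtype library. Tpm1 fell by 0.41 ± 0.123 (SE, adjusted p = 0.00390) on the log2 scale, by 0.51 without knockout replicate 3, and lay at 0.0078 (adjusted p = 0.964) with total counts without mitochondrial rRNA.

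Tpm2 (ENSMUSG00000028464.16), beta-tropomyosin, lies on chromosome 4 from 43514711 to 43523765. For Tpm2, wildtype libraries 1 to 4 had normalised counts of 567.7, 651.4, 610.4 and 579.9, and knockout libraries 1 to 4 had 420.5, 355.6, 127.9 and 294.7. No knockout library reached the wildtype range, and knockout replicate 3 was far below the other 3. Tpm2 fell by 1.01 ± 0.282 (SE, adjusted p = 0.00176) on the log2 scale, by 0.76 without knockout replicate 3, and by 0.57 with total counts without mitochondrial rRNA, where it did not pass the test (adjusted p = 0.121). The log2 ratio of Tpm2 to Tpm1 differed by -0.71 (knockout minus wildtype), but the groups overlapped (exact p = 0.114, adjusted over the 5 ratios 0.143), and the difference was -0.26 without knockout replicate 3 and -0.98 to -0.67 without any other single library.

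**Figure D4:**
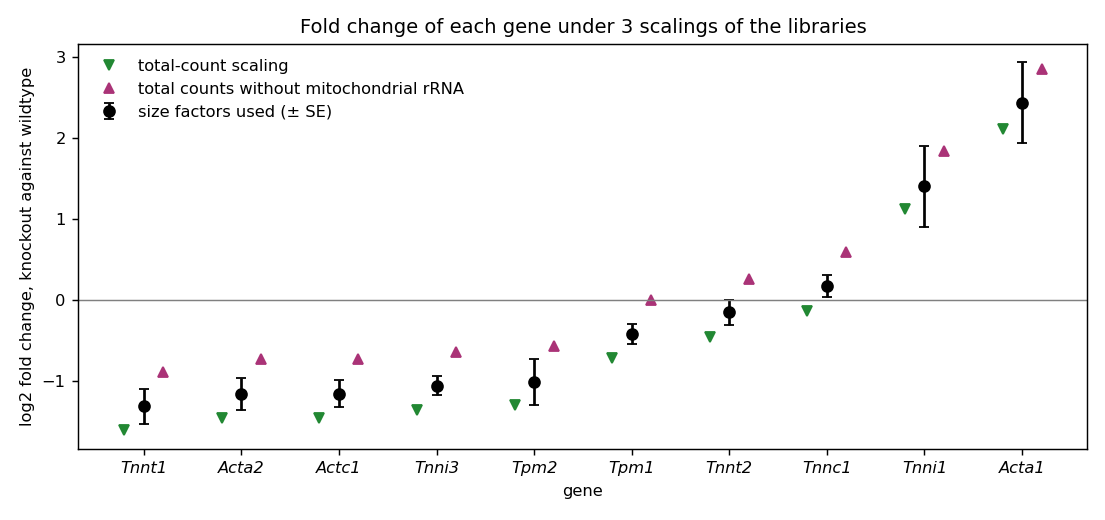
Log2 fold change of knockout against wildtype for the 10 genes, as fitted with median-of-ratios size factors (black circles ± SE), with total-count scaling (green) and with total counts without mitochondrial rRNA (purple). Each scaling moves all genes by about the same step, so that the signs of Tnnt2, Tnnc1 and Tpm1 differ between scalings and the other 7 genes keep theirs.

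Levels of different genes can be compared per length within libraries. By mean TPM in wildtype hearts the order was Actc1 (2810 ± 168, SD), Tpm1 (2730 ± 186), Tnnt2 (2138 ± 111), Tnni3 (1926 ± 100.9), Tnnc1 (963 ± 28.6), Acta1 (77.4 ± 42.3), Acta2 (47.5 ± 6.16), Tpm2 (14.4 ± 0.980), Tnnt1 (5.26 ± 0.873) and Tnni1 (0.218 ± 0.0222). Actc1 and Tpm1, Tnnt2 and Tnni3, and Acta1 and Acta2 had overlapping ranges in the wildtype libraries. In knockout hearts the order was Tpm1 (1864 ± 225), Tnnt2 (1745 ± 342), Actc1 (1153 ± 263), Tnnc1 (983 ± 121), Tnni3 (842 ± 88.9), Acta1 (375 ± 146), Acta2 (19.5 ± 5.57), Tpm2 (6.60 ± 2.79), Tnnt1 (1.94 ± 0.390) and Tnni1 (0.525 ± 0.214). Each of the first 5 genes overlapped with its neighbour in this order, and Acta1 stood between them and the minor genes without overlap. TPM values include the mitochondrial rRNAs, which took a larger share of the knockout libraries, and single levels are therefore compared within a group. As a description, the 10 genes together held 1.07% ± 0.0378 (SD) of all TPM in wildtype and 0.699% ± 0.0460 in knockout hearts, and 1.88% ± 0.0591 and 1.65% ± 0.108 of the TPM outside the mitochondrial genome.

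The subunits of 1 filament are needed in fixed proportion, so the other 4 main heart genes were also set against Tnnt2. These ratios were chosen after the values had been seen and were given no test. Tnni3 was 0.907, 0.899, 0.914 and 0.884 of Tnnt2 in wildtype libraries 1 to 4, and 0.722, 0.430, 0.368 and 0.494 of Tnnt2 in knockout libraries 1 to 4. The wildtype libraries were within a narrow band that no knockout library reached. The ratio of Actc1 to Tnnt2 was 1.32 ± 0.125 (SD) in wildtype and 0.699 ± 0.278 in knockout hearts, and that of Tpm1 to Tnnt2 was 1.28 ± 0.0230 and 1.08 ± 0.0959. The ratio of Tnnc1 to Tnnt2 went the other way, from 0.452 ± 0.0286 to 0.572 ± 0.0778. None of the 4 ratios overlapped between the groups, and for Tnni3, Actc1 and Tpm1 the lowest knockout value was in knockout replicate 3, whose Tnnt2 count was the highest. Without that library the knockout means were 0.549 ± 0.154 (SD) for Tnni3, 0.800 ± 0.233 for Actc1, 1.12 ± 0.0551 for Tpm1 and 0.589 ± 0.0860 for Tnnc1.

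The mean transcript length of a gene, which the authors' quantification weights by abundance, moves when the mix of transcripts moves. It was compared for the 10 genes by the same exact permutation test. For Tnnt2 it was 1072, 1069, 1061 and 1067 bases in wildtype libraries 1 to 4, against 1090, 1094, 1134 and 1103 bases in knockout libraries 1 to 4. The groups did not overlap, and knockout replicate 3 had the longest mean. The difference was 38.0 bases (exact p = 0.0286, adjusted over 10 genes 0.286) and 28.3 to 43.2 bases when single libraries were left out. Lengths did not overlap for 10.9% of 7214 records with at least 100 counts in every library and a length that varies. Of the 7 members that meet these conditions (all but Acta2, Tnnt1 and Tnni1), Tnnt2 was the 1 without overlap. Its record holds 15 transcripts of 292 to 3330 bases, 3 of them with a retained intron. A lone gene at the smallest p that the assignments allow adjusts to 0.286 over 10 genes, so the adjusted test of length could not call 1 gene by itself, and single transcripts were not analysed here. For Tpm2 the mean length was 1362 ± 30.99 (SD) bases in wildtype and 1279 ± 95.6 in knockout libraries, where replicate 3 lay at 1422 and the other 3 between 1226 and 1239, and for the other 8 genes the mean length overlapped between the groups as well.

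**Figure D5:**
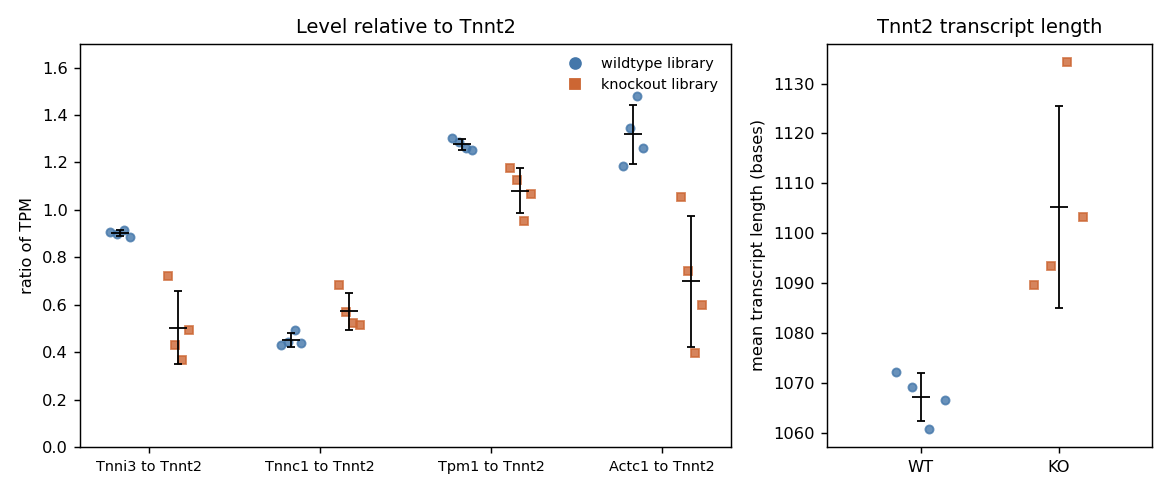
Left, ratio of TPM of Tnni3, Tnnc1, Tpm1 and Actc1 to Tnnt2 in each library, and right, the abundance-weighted mean transcript length of Tnnt2 in bases (axis not from 0), with bars for the mean ± SD of 4 libraries. The knockout libraries are lower for Tnni3, Tpm1 and Actc1 and higher for Tnnc1, and their Tnnt2 length is 1090 to 1134 bases against 1061 to 1072 in wildtype libraries.

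Around the 10 genes, 31 further actin, troponin, tropomyosin and thin-filament genes were listed, of which 30 were tested, 10 rose, 8 fell and 12 did not pass, with a median log2 fold change of 0.11. Among all records tested 33.7% were called, 18.2% higher and 15.5% lower. The largest rise among well-detected genes was in Xirp2, an actin-binding protein of the intercalated disc (1.68 ± 0.133, SE, with means of 26324 and 84372 normalised counts). Tnnt3, the fast skeletal troponin T, had a fitted value of 2.71 ± 0.762 at means of 2.85 and 18.6 normalised counts, but it reached the minimum for naming through its knockout libraries, knockout replicate 1 (5.132) was barely above wildtype replicate 1 (4.984), and it was too low to be tested with edgeR or with the filter of 10 counts in 4 libraries. Cfl1, which severs actin filaments, rose by 1.07 ± 0.110, and Capza1, a subunit of the capping protein of barbed ends, by 0.995 ± 0.140. The largest falls were in Neb, the nebulin that runs along thin filaments of skeletal muscle (-1.70 ± 0.255), and in Tmod4, a cap of the pointed end (-1.68 ± 0.246). Tnni3k, a heart kinase named for its binding to troponin I, fell by 1.42 ± 0.116, and Lmod1, a leiomodin of smooth muscle, by 1.13 ± 0.190. Lmod3, a leiomodin of striated muscle, fell by 0.92 ± 0.307, and by 0.68 without knockout replicate 3. The call of Lmod3 was lost without knockout replicate 4 (adjusted p = 0.0531) and with total counts without mitochondrial rRNA (0.231). Tnni2, the fast skeletal troponin I, fell by 1.45 ± 0.543 at a mean of 17.3 normalised counts in wildtype hearts, and lost its call under 8 of the 15 alternatives, among them leaving out any wildtype replicate (adjusted p from 0.0722 to 0.0915), knockout replicate 1 (0.0834) or knockout replicate 3 (0.0986).

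Of 12 transcription factors and cofactors known to act on actin and troponin genes, 0 rose, 3 fell and 9 did not pass (DESeq2), with a median log2 fold change of -0.19. At an unadjusted p under 0.05, and with edgeR, the counts were likewise 0 higher and 3 lower. The share called among these 12 was below the 33.7% called among all records tested. Myocd, the cofactor myocardin, fell by 1.17 ± 0.125 (SE), from 1671 ± 207 (SD) to 740 ± 59.5 normalised counts. Tbx5, a T-box factor of the heart, fell by 1.21 ± 0.209, from 497 ± 66.2 to 215 ± 62.0. Mef2c was at -0.40 ± 0.158 (adjusted p = 0.0385) with overlapping groups and at 0.037 (adjusted p = 0.894) with total counts without mitochondrial rRNA, and its call was lost without wildtype replicate 1, 2 or 4 and without knockout replicate 2, 3 or 4 (adjusted p from 0.0565 to 0.169). Srf, the factor that binds CArG boxes, was at 0.19 ± 0.164 (adjusted p = 0.404) and Tead1 at -0.24 ± 0.178 (adjusted p = 0.328).

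Markers of other tissues and cells also moved with genotype, and the counts called in each list stand against 33.7% of all records tested. Of 7 cardiomyocyte markers 5 fell and 0 rose (with edgeR and at an unadjusted p under 0.05 as well), with a median of -0.53, among them the calcium-handling genes Ryr2 (-1.40) and Pln (-1.46), while Actn2 and Myoz2 did not pass at 0.10 and -0.05. Of 4 atrial markers Myl7 (-3.54) and Sln (-2.84) fell, and the summed counts of the 4 were 9980 to 12038 in wildtype libraries, 1268 in knockout replicate 3 and 3233 to 6012 in the other knockout libraries. Of 7 skeletal muscle markers 5 were tested and Mybpc2 alone fell (-2.57), and the sums were 319 to 443 and 40.3 to 93.7, most of it Mybpc2. Of 5 fibroblast markers 2 rose and of 4 macrophage markers 3 rose, and of 4 endothelial and 5 erythroid markers 0 passed the test with DESeq2 or with edgeR. The fibroblast markers that rose were the collagen genes Col1a1 (1.48) and Col1a2 (1.29), while Dcn (0.20), Lum (0.62) and Pdgfra (-0.06) did not pass. At an unadjusted p under 0.05 in DESeq2, 1 endothelial marker was higher, 1 was lower, and 0 erythroid markers passed. The part of these shifts in the values of the thin-filament genes was not tested. The cardiomyocyte, atrial, skeletal muscle and smooth muscle sums were lower in knockout libraries without overlap, and most of the cardiomyocyte sum was Ttn. The fibroblast sums (11904 to 12408 in wildtype and 12602 to 24030 in knockout libraries), the myofibroblast sums (1753 to 2007 and 3498 to 15021) and the macrophage sums (1360 to 1550 and 1731 to 3524) were higher without overlap, and the endothelial and erythroid sums overlapped. In the fibroblast, myofibroblast and macrophage lists the lowest knockout sum was in knockout replicate 3. The marker sums were not recomputed under the other scalings, so their overlap is given for the size factors used. Apart from Mybpc2 the skeletal muscle markers were at the limit of detection in both groups, with at most 3 counts in any library for Myh2 and Myh4 and at most 8 for Myh1, Actn3, Pvalb and Mybpc1, none of which passed the test.

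The genes whose levels followed Acta1 most closely over the 8 libraries, among 10447 genes that averaged 100 or more normalised counts, were Mrpl54 (Pearson r = 0.998 on log2 counts), Msantd3 (0.984), Lsm11 (0.981), Erf (0.978) and Commd7 (0.977). For Tnni1 they included Apoe (0.987), Col4a5 (0.986), Fbln2 (0.983) and Rai14 (0.983). All of these were higher on average in the knockout group, from 0.38 for Mrpl54 to 1.36 for Fbln2 on the log2 scale. The libraries form 2 groups, so any gene with a clean difference between them scores high on this measure, and the values are given as a description.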

How the data were processed

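Total RNA from whole hearts was sequenced after depletion of cytoplasmic rRNA with random hexamer priming, and libraries were grouped by their titles. The authors made the deposited expected counts with RSEM 1.2.31 and bowtie2 (reverse-stranded, paired-end) against GENCODE M13 transcripts plus their own mitochondrial sequences with added adenines. The deposited TPM values came from the same run, with, as other values per gene in bases, the length and effective length that the authors deposited. A table of the authors' own comparison (log2 fold change, p-value and mean signal) was not used, and neither were 8 columns of normalised counts whose names match no sample label.

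Expected counts were rounded. Genotype was the single term of a DESeq2 model (version 1.42.0, R 4.3.3) of the 8 libraries, in which effective lengths entered as offset beside median-of-ratios size factors, after the tximport and DESeq2 route of the study. Fold changes were not shrunk, p values were adjusted by Benjamini-Hochberg over all records tested and the threshold was 0.05. Ratios used TPM with a pseudocount of 0.01. GENCODE M21 gave symbols for 50339 of 50563 Ensembl identifiers, and promoters came from RefSeq (12 for the 10 genes). On data simulated with 200 genes changed 2-fold, DESeq2 recovered 99% among 18950 genes tested and 7.042% of its calls were unchanged genes, and edgeR recovered 98.5% among 15960. The simulation gave both groups the spread of the wildtype libraries, and the changed genes were drawn from those well counted there. The knockout libraries differed more among themselves, and the data had 6728 calls. These rates therefore check the code and are not error rates of the reported calls. Every pair of replicates differed by more than sampling noise, so each library counted once, and p values measure the spread between these animals.

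The members, gene lists and tests were chosen with earlier results of these data known. The genes named were the 10 members, Lrpprc, the largest called changes of the thin-filament list (at most 10) and the regulator list (at most 4, of which 3 were called) averaging 10 or more normalised counts, and the 5 genes most like Acta1 and Tnni1, of which 1 is not reported here. Marker genes, Srf and Tead1 are named besides as list members or motif binders. Alternatives were edgeR 4.0.16 (quasi-likelihood, TMM), a fit without length offset, a filter of 10 counts in 4 libraries, nuclear genes alone for the size factors, scaling by totals (all, or all but mitochondrial rRNA), a replicate block, dropping each library, and for ratios expected counts, a pseudocount of 1 and medians. Ratios and lengths with a library left out are given as values without a test. Counts cover counting error only.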

Additional observations from a re-analysis of the deposited data

Results flagged for a closer look

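Of 52 groups of 4 libraries examined for a single library far from the other 3, 4 stood out, where chance alone gives about 1 in 20, or 2.6. Lrpprc in knockout replicate 2 had a normalised count of 504.28, against 597.403 to 605.367 in the other knockout libraries. The other 3 were all in knockout replicate 3 and concerned the mean transcript length: Tnni3 at 899.31 bases against 901.41 to 901.84, Tnni1 at 965.28 bases against 1105 to 1109.47, and Tpm2 at 1422.06 bases against 1225.97 to 1239.21. For Tnni1 the length rests on 11 counts in that library.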

How the results depend on the processing

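The directions and calls of Actc1, Acta1, Acta2, Tnnt1 and Tnni3 were the same under all 15 alternatives to the fit, and the number of the 10 genes called ranged from 7 to 9. The number called higher was 1 instead of 2 with the replicate block and under total-count scaling, 3 with total counts without mitochondrial rRNA, and 1 to 2 when single libraries were left out, the gene lost being Tnni1. Over all records the number called was 6269 with edgeR, 5496 with the replicate block and 5528 to 6969 with single libraries left out. Total-count scaling gave 1924 higher and 5912 lower, and leaving mitochondrial rRNA out of the totals gave 7917 and 1103. The sign of Tnnc1 turned under total-count scaling (-0.13), and without mitochondrial rRNA in the totals so did those of Tnnt2 (0.26), Tpm1 (0.0078) and Mef2c (0.037), which follows from the shift of all records under these scalings. The ratio of Acta2 to Actc1 was near 0 with no stable sign: -0.01 as reported, 0.032 with a pseudocount of 1 TPM, and -0.14 to 0.073 with single libraries left out. A pseudocount of 1 TPM lowered the ratio of Tnni1 to Tnni3 from 2.35 to 1.51. The replicate numbers did not pair the libraries, since the correlation of deviations between same-numbered libraries was -0.05 to 0.09, and with the block Tnni1 (adjusted p = 0.111) and Tnni2 (0.105) lost their calls. Tnni1, with 6 to 24 counts per library, and Tnnt3, which could not be tested with edgeR or the 10-count filter, are limited by depth.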
